A study of Mus musculus with 12 samples.

Results

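The nuclear genes of oxidative phosphorylation were followed in nascent RNA of mouse liver. They were chosen by symbol alone: every gene whose name begins with Nduf, Uqcr or Atp5, or with Cox followed by 4, 5, 6, 7 or 8, together with Sdha, Sdhb, Sdhc, Sdhd and Cyc1. This rule found 83 genes among the 21490 symbols of the table. By their known functions, 35 of them encode subunits of complex I, 4 of complex II, 8 of complex III, 15 of complex IV and 15 of complex V. Another 3 encode assembly factors (Ndufaf1, Cox7a2l and Ndufa12l, now named Ndufaf2). The last 3 were found by their names and were counted with no complex (Ndufa4l2, Cox4nb, now named Emc8, and Atp5s). Ndufa4 was counted with complex IV, where its product is now placed.

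Oxidative phosphorylation takes place in the inner mitochondrial membrane. Complex I (NADH dehydrogenase) and complex II (succinate dehydrogenase) pass electrons to ubiquinone, complex III (the cytochrome bc1 complex) passes them to cytochrome c, and complex IV (cytochrome c oxidase) passes them to oxygen. Protons pumped by complexes I, III and IV return through complex V, the ATP synthase, which makes ATP. Complex II is encoded wholly in the nucleus, whereas the other complexes also hold subunits encoded by mitochondrial DNA, which are not members here. Liver cells are rich in mitochondria and use this ATP for urea synthesis, gluconeogenesis and other energy-consuming pathways.

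Nascent RNA, RNA still attached to chromatin, was purified from liver nuclei of adult male C57BL/6 mice aged 3 to 6 months. The mice had been held for at least 2 weeks in 12 h of light and 12 h of darkness. Livers were collected at zeitgeber times ZT0 (lights on), ZT4, ZT8, ZT12 (lights off), ZT16 and ZT20, with 2 replicates per time point and thus 12 libraries of wild-type animals with no control group. The methods call the 2 series independent, but do not say whether a library came from 1 animal, and p-values measure only the spread between these libraries. Both libraries of ZT8 and of ZT20 were sequenced in 2 lanes and the others in 1 lane, so lanes and time points cannot be told apart. Values are reads per base pair of merged exons (rpbp), brought to a common read number by the authors, so levels of different genes can be set side by side per exon base.

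The libraries were not alike in base composition. Over 6216 tested genes, the Spearman correlation of a library's log2 deviation from the gene mean with exon GC content ran from -0.65 in ZT8 replicate 2 to 0.447 in ZT16 replicate 1, and was -0.508 in ZT20 replicate 2. The members had a median exon GC content of 50.5%, against 49.6% over tested genes. The deposited values of all symbols summed to between 118342 and 160545 rpbp per library. The 6 hepatocyte markers (Alb, Apoa1, Ttr, Trf, Serpina1a and Cps1) summed to 657.9 to 1838 rpbp, and none of them was at 0 throughout. Macrophage markers summed to 14.8 to 51.1 rpbp and endothelial markers to 9.9 to 24.2 rpbp, each lowest in ZT8 replicate 2 and highest in ZT8 replicate 1. Stellate cell markers summed to 6.1 to 10.2 rpbp, bile duct markers to 0.8 to 2.2 rpbp over the 3 of 4 in the table, and red blood cell markers to 8.5 to 14.6 rpbp over the 2 of 5 in the table. In bulk tissue, fewer cells of a type and less RNA per cell cannot be told apart.

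The members were transcribed above the typical gene but seldom at high level. Their median level was 3.08 rpbp against 1.77 rpbp for all symbols, and 65 of 83 lay above the median symbol. A mean above 3 rpbp was reached by 42 members (50.6%, against 37.6% of all symbols), and a mean above 12 rpbp by 4. No member was at 0 in every library, and 5 were at 0 in some library. The level needed for testing, more than 6 rpbp in at least 1 library, was passed by 27 members (32.5%, against 29.2% of all symbols). Of these, 8 were above 6 rpbp in all 12 libraries and 6 in a single library.

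**Figure D1:**
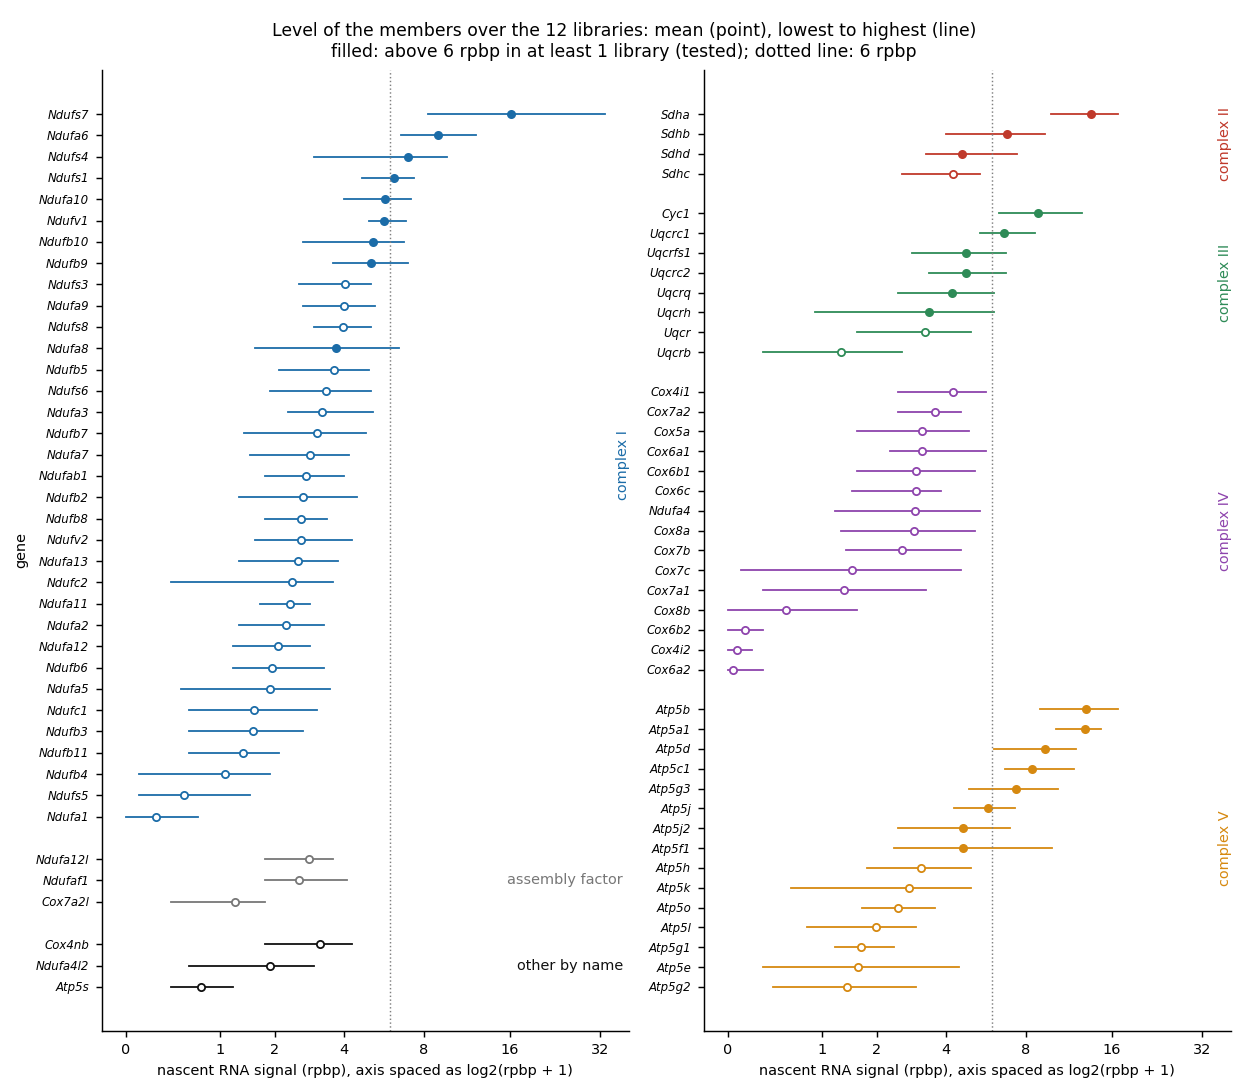
Level of 82 of the 83 members, in rpbp on an axis spaced as log2(rpbp + 1), with the mean of 12 libraries as a point and the lowest to highest library as a line. Ndufs7, Sdha, Atp5b and Atp5a1 lie furthest to the right with means of 12.9 rpbp or more, and no gene of complex IV passes the dotted line at 6 rpbp.

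Levels differed by complex and by the place of the subunit in it. The median over members of the mean level was 5.72 rpbp for complex II, 4.65 rpbp for complex V, 4.49 rpbp for complex III, 2.93 rpbp for complex IV and 2.9 rpbp for complex I. In every one of the 12 libraries, the median of complex II was above those of complexes I and IV, and the medians of complexes III and V were above that of complex IV. Complexes I and IV were not ordered by these figures. Within single libraries the median of complex I was above that of complex IV in 11 of 12 and below it in 0. Within complex I, the 7 core subunits, which carry the flavin and the iron-sulfur clusters, had a median of 5.73 rpbp, against 2.68 rpbp for the 28 accessory subunits. The core median was the higher one in 12 of 12 libraries. Within complex V, the 5 subunits of F1, which holds the head where ATP is made and the central stalk, had a median of 9.34 rpbp. The 7 subunits of the peripheral stalk and of the membrane part outside the c ring had 3.16 rpbp, lower in 12 of 12 libraries. The 3 genes of the c ring had a median of 1.67 rpbp and ran from 1.41 (Atp5g2) to 7.39 rpbp (Atp5g3). These are orders within these libraries and were not tested, since the genes of a complex are not replicates. Level also followed exon number over the members (Spearman correlation 0.48), and the part of each was not tested.

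Complex I held both the highest member and some of the lowest. Ndufs7, a core subunit with an iron-sulfur cluster, lies at chr10:79712197-79719537 (mm9, plus strand, 7 annotated exons). It measured 14.8 and 16.3 rpbp at ZT0, 16.1 and 19.6 at ZT4, 33.2 and 13.4 at ZT8, 15.8 and 14.7 at ZT12, 13.8 and 8.3 at ZT16, and 16.6 and 10.6 at ZT20. The value of 33.2 in ZT8 replicate 1 stood apart, while the other 11 libraries lay between 8.3 and 19.6 rpbp. It remained at 33.8 rpbp after the trend with GC content was removed. Next in complex I came Ndufa6, an accessory subunit, with 8.99 ± 1.51 rpbp (SD, n = 12). Ndufa8, an accessory subunit, had the lowest mean of the tested genes of the complex, 3.71 rpbp, and passed 6 rpbp only in ZT0 replicate 1 (6.5 rpbp), the other libraries lying between 1.6 and 4.6 rpbp.

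Among the untested genes of complex I, 25 in number, means ran from 0.25 to 4.04 rpbp and no library exceeded 5.3 rpbp. They were the core subunits Ndufs3, Ndufs8 and Ndufv2 and the accessory subunits Ndufa1, Ndufa2, Ndufa3, Ndufa5, Ndufa7, Ndufa9, Ndufa11, Ndufa12, Ndufa13, Ndufab1, Ndufb2, Ndufb3, Ndufb4, Ndufb5, Ndufb6, Ndufb7, Ndufb8, Ndufb11, Ndufc1, Ndufc2, Ndufs5 and Ndufs6. Ndufa1 was the lowest, at 0 to 0.7 rpbp. Ndufs5 (0.533 ± 0.425 rpbp) and Ndufb4 (1.08 ± 0.499 rpbp) are uncertain, since 28.1% and 22.1% of the 80-base stretches of their exons occur elsewhere in the genome and only uniquely mapped reads were kept.

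In complex II, the flavoprotein Sdha, which holds the site of succinate oxidation, was the second highest member at 13.5 ± 2.12 rpbp (chr13:74459703-74487688, mm9, minus strand, 16 exons). It measured 11.5 and 16.8 rpbp at ZT0, 13.8 and 14.9 at ZT4, 14.3 and 15.7 at ZT8, 11.2 and 13.6 at ZT12, 11.3 and 9.8 at ZT16, and 15 and 14.5 at ZT20. The iron-sulfur subunit Sdhb was at 6.83 ± 1.38 rpbp. The 2 membrane anchors were lower, with 4.61 ± 1.17 rpbp for Sdhd and 4.25 ± 0.778 rpbp for Sdhc, the only untested gene of the complex (2.6 to 5.4 rpbp).

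In complex III, cytochrome c1 (Cyc1, chr15:76173953-76176364, mm9, plus strand) was highest at 8.85 ± 1.83 rpbp. It measured 7.7 and 9 rpbp at ZT0, 11.1 and 7.2 at ZT4, 7.8 and 6.4 at ZT8, 10 and 12.6 at ZT12, 9.6 and 7.6 at ZT16, and 9.8 and 7.4 at ZT20. The structural core protein Uqcrc1 followed with 6.67 ± 0.866 rpbp. The Rieske iron-sulfur protein Uqcrfs1 and the core protein Uqcrc2 were both at 4.78 rpbp. The hinge protein Uqcrh had the lowest tested mean, 3.42 ± 1.49 rpbp, with a range of 0.9 to 6.1 rpbp. Uqcr (now Uqcr11) and Uqcrb were not tested, with means of 3.27 and 1.3 rpbp.

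In complex V, the catalytic beta subunit Atp5b (chr10:127520363-127527444, mm9, plus strand, 9 exons) and the alpha subunit Atp5a1 were the highest, at 13.1 ± 2.31 and 12.9 ± 1.48 rpbp. Atp5b measured 13.6 and 14 rpbp at ZT0, 11.5 and 13.5 at ZT4, 13.6 and 13.3 at ZT8, 10.2 and 16.7 at ZT12, 9 and 11.2 at ZT16, and 16.7 and 13.3 at ZT20. The F1 subunits Atp5d and Atp5c1 were at 9.34 ± 1.49 and 8.38 ± 1.47 rpbp, while the small F1 subunit Atp5e was at 1.61 ± 1.15 rpbp. The lowest tested mean was that of Atp5f1, a subunit of the peripheral stalk, at 4.65 ± 1.92 rpbp. The 7 untested genes, Atp5e, Atp5g1, Atp5g2, Atp5h, Atp5k, Atp5l and Atp5o, had means of 1.41 to 3.16 rpbp and no library above 5. Atp5l is uncertain, since 75.5% of its exonic 80-base stretches occur elsewhere.

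All 15 genes of complex IV stayed below 6 rpbp, the highest value in any library being 5.7 rpbp. The largest mean was that of Cox4i1, at 4.27 ± 0.922 rpbp (chr8:123192190-123198109, mm9, plus strand, 5 exons), followed by Cox7a2 at 3.6 ± 0.759 rpbp. Cox5a, Cox6a1, Cox6b1, Cox6c, Ndufa4, Cox8a and Cox7b lay between 2.61 and 3.18 rpbp. Cox7c measured 1.49 ± 1.25 rpbp, with 4.6 rpbp in ZT8 replicate 2 and 0.1 in ZT12 replicate 1, and 18.5% of its exonic 80-base stretches are repeated elsewhere. The 3 assembly factors were at 2.88 (Ndufa12l), 2.59 (Ndufaf1) and 1.23 rpbp (Cox7a2l), and the 3 genes counted with no complex at 3.18 (Cox4nb), 1.91 (Ndufa4l2) and 0.742 rpbp (Atp5s). None of these 6 was tested.

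Several subunits exist as alternative isoforms encoded by separate genes, one used in most tissues and another in heart and skeletal muscle, lung or testis. Levels of 10 pairs of isoforms or related genes were compared within the 12 libraries by exact two-sided sign-flip permutation tests. Cox4i1, the general isoform, was at 2.5 to 5.7 rpbp and Cox4i2, the isoform of lung, at 0 to 0.2 rpbp. Cox6a1 was at 2.3 to 5.7 rpbp and the muscle isoform Cox6a2 at 0 to 0.3 rpbp. Cox6b1 was at 1.6 to 5.2 rpbp and the testis isoform Cox6b2 at 0 to 0.3 rpbp. In each of these pairs the ranges did not overlap.

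Other muscle isoforms were lower than their partners, with low signal in most libraries. Cox8a averaged 2.93 ± 1.23 rpbp and Cox8b 0.533 ± 0.568 rpbp (0 to 1.6 rpbp). Cox8b was at 0 in 3 libraries and did not exceed 0.4 rpbp in replicate 2. With 362 exon bases in Cox8b and 364 in Cox7a1, such low values are uncertain. Cox7a2 averaged 3.6 rpbp, which was 2.67 times the 1.35 ± 0.859 rpbp of the muscle isoform Cox7a1 and 2.92 times the 1.23 ± 0.477 rpbp of the supercomplex assembly factor Cox7a2l. Of the 3 striated muscle markers in the table, 2 were at 0 in every library and the sum of the 3 did not exceed 0.1 rpbp. Cox7a2l is uncertain, as 44% of its exonic 80-base stretches are repeated elsewhere.

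The c subunit, which forms the rotating ring of ATP synthase, is encoded by 3 genes whose mature proteins are identical. Atp5g3 led with 7.39 ± 1.88 rpbp, which was 4.44 times Atp5g1 (1.67 ± 0.311 rpbp) and 5.25 times Atp5g2 (1.41 ± 0.689 rpbp). In Atp5g2, 100% of the exonic 80-base stretches are repeated elsewhere, against 18.8% in Atp5g1 and 0 in Atp5g3, so the low value of Atp5g2 is uncertain. In all these pairs the first gene was higher in 12 of 12 libraries, with an exact p of 0.000488, the smallest that 12 libraries allow (Benjamini-Hochberg adjusted over the 10 pairs, 0.00061). Ndufa4 exceeded Ndufa4l2 in 9 of 12 libraries by 1.06 ± 1.4 rpbp (exact p = 0.0215, adjusted p = 0.0239). Atp5g1 and Atp5g2 differed by 0.258 ± 0.767 rpbp (SD over libraries, exact p = 0.3).

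**Figure D2:**
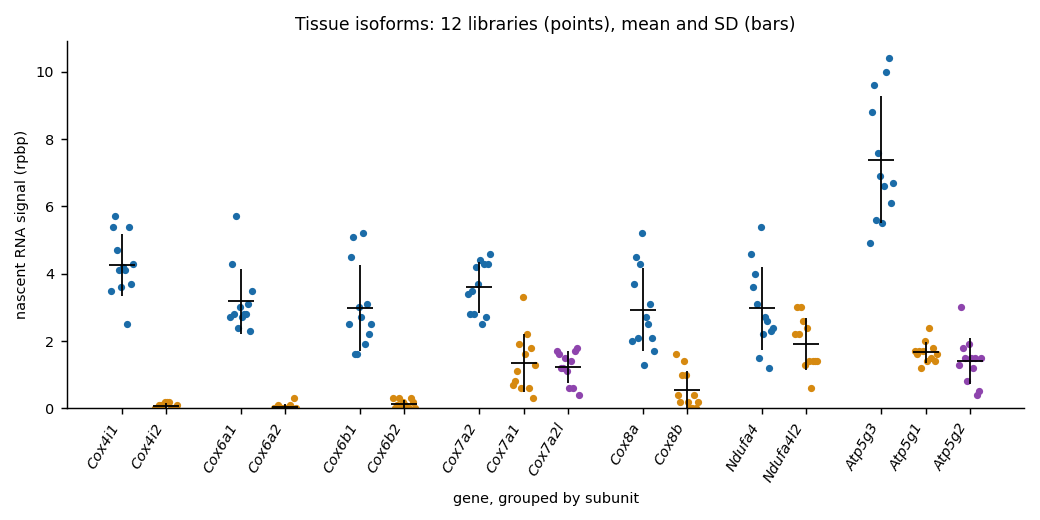
Signal (rpbp) of isoforms and related genes grouped by subunit, with each of the 12 libraries as a point and the mean and SD as bars. Cox4i2, Cox6a2 and Cox6b2 lie at or near 0 in every library, whereas Cox7a1 averages 1.35 rpbp and Atp5g3 stands above Atp5g1 and Atp5g2 in each library.

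Time of day was examined first as a rhythm. F24 is the share of a gene's variance over the 12 libraries that a cosine of 24 h carries. Rhythmic calls required 3 things together, namely a one-sided permutation p below 0.05 without adjustment, F24 above 0.45, and more than a 1.5-fold span from the lowest to the highest library. Of the 27 members tested, 2 (7.41%) were called rhythmic, Sdhd and Ndufa10, against 15.1% of all 6284 tested genes. At the stricter limits for a strong rhythm none was called, against 6.38% of tested genes. After Benjamini-Hochberg adjustment over all tested genes no member had a permutation p under 0.05, against 0.668% of tested genes. Without adjustment the same 2 members, 7.41%, had p under 0.05, against 16.4%.

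Sdhd, the small membrane anchor of complex II, measured 3.3 and 3.5 rpbp at ZT0, 4.2 and 4.3 at ZT4, 4.4 and 6.1 at ZT8, 4.9 and 7.4 at ZT12, 5.1 and 3.5 at ZT16, and 4.4 and 4.2 at ZT20. Both libraries of ZT0 were below both of ZT12, and the replicates differed most at ZT12, ZT8 and ZT16. F24 was 0.495 with a fitted peak at 11.1 h (permutation p = 0.0277, adjusted p = 0.236). Sdhd passed 6 rpbp only in ZT8 replicate 2 and ZT12 replicate 2, so it entered the tests through libraries near this peak. Its call and its contrast of ZT0 with ZT12 are not independent of that filter. In the limma fit, ZT0 was below ZT12 with a log2 change of -0.68 ± 0.24 (SE), an unadjusted p of 0.0165 and an adjusted p of 0.15. The call was lost without any of 5 single libraries, ZT0 replicates 1 and 2, ZT4 replicates 1 and 2 and ZT12 replicate 2, with F24 between 0.429 and 0.492. It was kept without ZT8 replicate 2 (F24 0.454) and with the trend in GC content removed (F24 0.549).

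Ndufa10, an accessory subunit of complex I, measured 6.7 and 6.4 rpbp at ZT0, 6.1 and 7.2 at ZT4, 6.2 and 5.2 at ZT8, 5 and 6.5 at ZT12, 4.2 and 4 at ZT16, and 6.2 and 5.4 at ZT20. The 2 libraries of ZT16 were the lowest of the 12, below all others. F24 was 0.548 with a fitted peak at 3 h (permutation p = 0.0328, adjusted p = 0.256). ZT4 exceeded ZT16 by 0.58 ± 0.19 on the log2 scale (unadjusted p = 0.0127, limma adjusted p = 0.153). Leaving out any of 7 single libraries ended the call, with F24 between 0.457 and 0.543. Those were both libraries of ZT0 and of ZT16, ZT4 replicate 2, ZT8 replicate 1 and ZT12 replicate 1. With the replicate number as a block the permutation p was 0.0503. The call was kept without ZT8 replicate 2 (F24 0.617) and with the trend in GC content removed (F24 0.652).

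**Figure D3:**
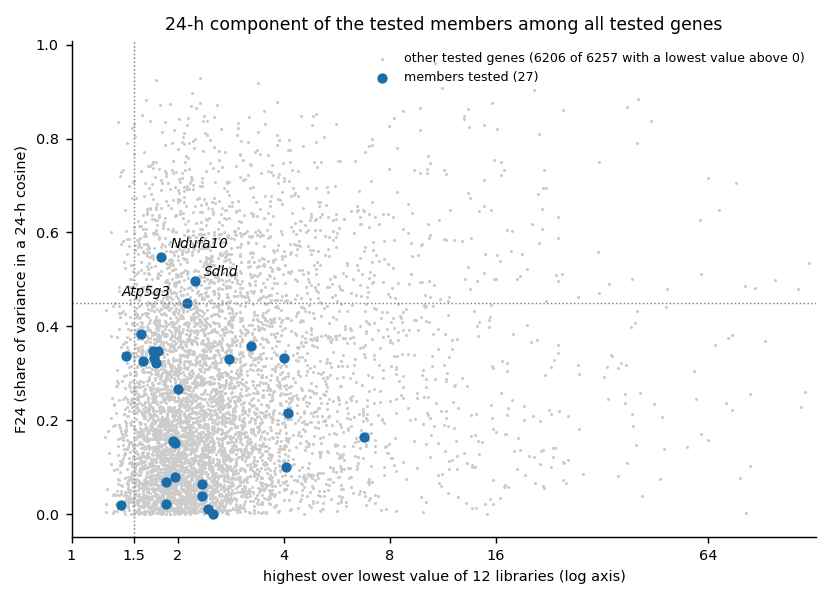
F24 against the highest over the lowest value of 12 libraries (log axis) for the 27 tested members and for other tested genes, with dotted lines at 0.45 and 1.5 (genes with a library at 0 are not drawn). Ndufa10 and Sdhd lie above both limits, Atp5g3 lies just under the first at 0.449, and the other members lie at 0.384 or less.

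Just outside the limits was Atp5g3, the leading gene of the c ring, with F24 of 0.449 and a fitted peak at 9.29 h (permutation p = 0.078). It measured 4.9 and 5.5 rpbp at ZT0, 8.8 and 6.6 at ZT4, 9.6 and 10 at ZT8, 5.6 and 10.4 at ZT12, 7.6 and 6.1 at ZT16, and 6.9 and 6.7 at ZT20. Both libraries of ZT8 were above all others but ZT12 replicate 2, and ZT12 replicate 1 was among the lowest. The 2 genes of complex II and complex V with the highest levels, Sdha (F24 0.333, permutation p = 0.165) and Atp5b (F24 0.0674, permutation p = 0.726), were not called.

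The 6 time points were also compared with no assumed shape, by limma and its moderated F-test. Values entered as log2(rpbp + 1), a scale that understates the change of low genes. No member had an adjusted p under 0.05, against 7.65% of tested genes. At an unadjusted p under 0.05 there were 2 (7.41%), Atp5f1 and Ndufs4, against 27.6% of tested genes. The limma adjusted p was 0.106 for Atp5f1 and 0.169 for Ndufs4. The F-test of 24-h cosine terms in limma called no member and 2.59% of all tested genes.

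Atp5f1 measured 3.9 and 4.6 rpbp at ZT0, 5 and 4.3 at ZT4, 5.5 and 9.9 at ZT8, 2.4 and 3.7 at ZT12, 2.9 and 3.3 at ZT16, and 5 and 5.3 at ZT20. The value of 9.9 in ZT8 replicate 2 was far above the other 11, of which 5.5 was the highest. Its exons hold 41% GC, and in the library with the strongest trend against GC content this value became 6.57 rpbp once the trend was removed (limma adjusted p then 0.19). Atp5f1 passed 6 rpbp only in ZT8 replicate 2, so it entered the tests through its own highest library. It was one of the alternatives' tested genes in 18 settings, and none of these left that library out. Without ZT8 replicate 1, the value of 9.9 was the only one at ZT8. The dependence of the F-test on this value was therefore not tested.

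Ndufs4, an accessory subunit needed for the assembly of complex I, measured 6.6 and 8.7 rpbp at ZT0, 6.3 and 9.7 at ZT4, 6.7 and 9.5 at ZT8, 4.5 and 3 at ZT12, 7.6 and 4.8 at ZT16, and 8 and 8.8 at ZT20. Both libraries of ZT12 were below the other 10. ZT0 exceeded ZT12 by 0.87 ± 0.29 on the log2 scale (unadjusted p = 0.0126, limma adjusted p = 0.128), and the adjusted p lay between 0.0879 and 0.454 over 19 alternatives.

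**Figure D4:**
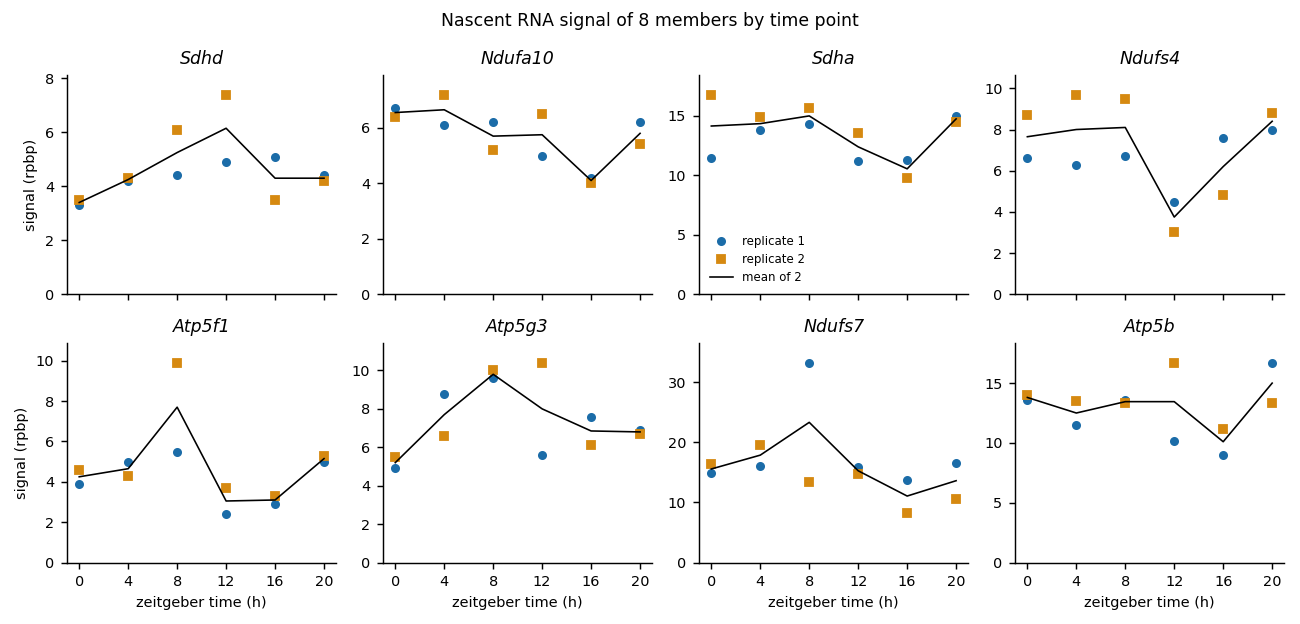
Signal (rpbp) of 8 members by zeitgeber time (h), with replicate 1 as circles, replicate 2 as squares and the mean of 2 as a line. The mean of Sdhd is lowest at ZT0 (3.3 and 3.5 rpbp) and that of Ndufa10 at ZT16 (4.2 and 4 rpbp), while single libraries stand out in Atp5f1 (9.9 rpbp) and Ndufs7 (33.2 rpbp) at ZT8.

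Time points 12 h apart gave no member past the adjusted threshold in limma. Between ZT0 and ZT12, 4.44% of tested genes passed it (1.59% higher at ZT0 and 2.85% higher at ZT12), and 2 members (7.41%) had an unadjusted p under 0.05, Ndufs4 and Sdhd, against 18.4%. Between ZT4 and ZT16, 2.1% of tested genes passed (1.34% higher at ZT4 and 0.764% higher at ZT16), and 2 members had an unadjusted p under 0.05, against 19.4%. These were Ndufa10 and Atp5j2, a small membrane subunit of complex V. Atp5j2 measured 7 and 5.2 rpbp at ZT4 and 3.5 and 2.5 rpbp at ZT16, a log2 change of 0.83 ± 0.3 (unadjusted p = 0.0186, adjusted p = 0.175). It passed 6 rpbp only in ZT4 replicate 1 and ZT8 replicate 1, and thus in part through the high side of this contrast. Between ZT8 and ZT20, 1.58% of tested genes passed (0.414% higher at ZT8 and 1.16% higher at ZT20), and no member had an unadjusted p under 0.05, against 12.6%. The smallest adjusted p of a member was 0.549, for Atp5g3.

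Directions were counted over the members and over all symbols, with no test of the difference. Of the 42 members with a mean above 3 rpbp, 34 (81%) were higher at ZT4 than at ZT16, with a median log2 difference of 0.27, against 71.4% and 0.19 of the 8077 symbols above that level. After every library was rescaled to the same median ratio, the figures were 26 members (61.9%) and 0.11, against 54% and 0.03, so the median of all genes in this contrast depended on the scaling. Between ZT0 and ZT12, 21 of 42 members were higher at ZT0 (all symbols, 47.8%), and between ZT8 and ZT20, 25 of 42 were higher at ZT8 (all symbols, 50.6%). On the deposited scale, ZT16 replicate 2 was the lowest library both for the members (median log2 deviation from each gene's mean, -0.24) and for all symbols (-0.20), whereas after rescaling ZT16 replicate 1 was lowest for the members (-0.10) and ZT8 replicate 1 for all symbols (-0.07).

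Summed over all 83 members the signal was 323.9 and 322.3 rpbp at ZT0, 341.2 and 345.1 at ZT4, 363 and 342 at ZT8, 300.8 and 338.7 at ZT12, 300.5 and 266.7 at ZT16, and 361.5 and 290.2 at ZT20. The highest library, ZT8 replicate 1, was 1.36 times the lowest, ZT16 replicate 2. The sums of all symbols were lowest in ZT0 replicate 1 and highest in ZT20 replicate 1. For the members ZT20 replicate 1 was close behind the highest, and over the 77 complex subunits the 2 libraries were equal (350.4 rpbp). Ndufs7 alone gave 33.2 rpbp in ZT8 replicate 1 and 16.6 rpbp in ZT20 replicate 1. The replicates of ZT20 differed by more than the means of ZT0, ZT4, ZT8 and ZT12 did among themselves. The sums of complex II spanned 20.6 to 34.4 rpbp and those of complex V 67.9 to 94.2 rpbp, each lowest in ZT16 replicate 2 and highest in ZT8 replicate 2. Those of complex IV spanned 26.5 (ZT0 replicate 2) to 41 rpbp (ZT20 replicate 1).

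The steadiest tested members were Ndufv1, the flavin-binding core subunit of complex I (SD over mean 0.113, 5 to 6.9 rpbp), Atp5a1 (0.115, 10.2 to 14.6 rpbp) and Uqcrc1 (0.13, 5.4 to 8.6 rpbp). Among the 8 members of 8 rpbp or more, the median SD over mean was 0.172, against 0.252 for the 2948 symbols at that level. Among the 15 members between 1 and 2 rpbp it was 0.46, against 0.325 for 2623 symbols. Most members lay between these levels and were closer to other genes. The 32 members between 2 and 4 rpbp had 0.297 against 0.257, and the 21 between 4 and 8 rpbp had 0.209 against 0.221. The 7 members below 1 rpbp had 0.923 against 0.876. Within a time point, 6 to 13 of the 42 members above 3 rpbp differed by more than 1.5-fold between the 2 replicates, fewest at ZT0 and ZT4 and most at ZT16. Over all symbols at that level the share was 11.3% to 29.1%, and over the members 14.3% to 31%.

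Members moved together little. Over the 12 libraries the median Pearson correlation between pairs of these 42 members was 0.122, against 0.0919 for pairs of all 8077 symbols above 3 rpbp, and 0.0557 against 0.0113 after rescaling. The libraries share their depth and base composition between genes, and these values are descriptions.

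The genes were compact. All 83 matched the GENCODE M1 annotation of mm9, with a median of 5 exons, 1243 exon bases and a span of 7512 bases, against 9 exons, 3491 exon bases and 22177 bases for the 14197 symbols matched. Level followed exon number. The 55 members with 5 exons or fewer had a median of 2.61 rpbp and the 28 with 6 or more a median of 5.25 rpbp, with a Spearman correlation of 0.48 over the members against 0.19 over all matched symbols. The correlation of level with the repeated share of the exons was -0.36, and 9 members had more than 10% of their exonic 80-base stretches repeated, Ndufs3 (14.2%) and Cox8a (15.2%) among them. These correlations are across genes, which share libraries and are not independent.

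Many members share their start region with a gene on the other strand. A start of an opposite-strand gene lay within 1000 bases upstream of 21 members (25.3%, against 11.8% of the matched symbols), at distances of 3 to 363 bases. Ndufs1 and Eef1b2, a translation elongation factor, start 3 bases apart, and measured 6.25 and 3.57 rpbp on average. Sdha and Ccdc127 start 29 bases apart and measured 13.5 and 4.64 rpbp. Cox4i1 and Cox4nb, both members, start 178 bases apart.

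The rhythmic call of Sdhd was not shared by its neighbour. Timm8b, an import chaperone of the mitochondrial intermembrane space that starts 52 bases from Sdhd, averaged 4.48 rpbp and had an F24 of 0.000453 (permutation p = 0.998). Its values were 4.6 and 4.7 rpbp at ZT0, 3.5 and 4.2 at ZT4, 3.5 and 6.5 at ZT8, 1.6 and 7.3 at ZT12, 5.1 and 2.9 at ZT16, and 4.8 and 5.1 at ZT20. The difference between the 2 genes was not tested. At ZT12, both genes were above 7 rpbp in replicate 2, whereas in replicate 1 Timm8b was at 1.6 and Sdhd at 4.9 rpbp.

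Because reads were counted without regard to strand, 18 members that share exon bases with another gene cannot be separated from it there. For 7 members this was over 10% of the exon bases. Among tested members, Atp5j, a subunit that couples the head and membrane parts of ATP synthase, shares 397 exon bases (12.7%) with Gabpa, which encodes a transcription factor of respiratory genes, on the other strand. Atp5f1 shares 337 exon bases (8.21%) with Wdr77.

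Promoters were read from RefSeq windows of 250 bases before to 50 bases after the start (GRCm38.p6), which existed for 67 members, 4 of them under a newer symbol. Members without such a window included Atp5a1, Cox4i1, Cox4i2, Cox4nb, Cox6a2, Cox6c, Cyc1, Ndufa2, Ndufa4l2, Ndufb9, Ndufs1, Sdhc, Uqcrb, Uqcrc2 and Uqcrq. NRF1, GABP, YY1, SP1 and the estrogen-related receptors (ERR) are transcription factors known for binding respiratory genes, and each motif was searched on both strands. The NRF1 motif, GCGCA, any base and then GCGC, was in 17 windows (25.4%), against 5.19% of 27025 genes with a window and 12.2% of the 4207 among them with a mean above 3 rpbp in these livers. The YY1 motif, AAGATGGC, was in 10 windows (14.9%, against 3.19% and 6.18%). Its matches in Atp5j2, Ndufa3, Ndufa9, Ndufb8, Ndufc1, Ndufs4, Ndufs6 and Ndufs7 lay 23 to 39 bases after the start. Those of Atp5f1 and Atp5j lay 3 and 88 bases before it. Only Ndufs6 held both the NRF1 and the YY1 motif.

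Most other motifs were near or below the background. The GABP motif, CCGGAAGT, was in 5 windows (7.46%, against 4.31% and 9.65%), and the SP1 motif, GGGCGG, in 29 (43.3%, against 38.2% of all genes and 69.5% of genes above 3 rpbp). The E-box CACGTG, which the clock factors CLK and BMAL1 bind, was in 6 windows (8.96%, against 8.09% and 12.5%). The D-box TTATGTAA was in 1 window (1.49%, against 1.11% and 0.737%), TATAAA in 6 (8.96%, against 15.7% and 9.27%) and CCAAT in 29 (43.3%, against 41.1% and 43.1%). The ERR motif, TCAAGGTCA, was in the windows of Atp5g3 and Sdhd only (2.99%, against 0.466% and 0.309%). A match is a description of letters and not a bound site. Members with the NRF1 motif had a median of 3.18 rpbp (17 genes) and those without one 2.92 rpbp (50 genes).

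**Figure D5:**
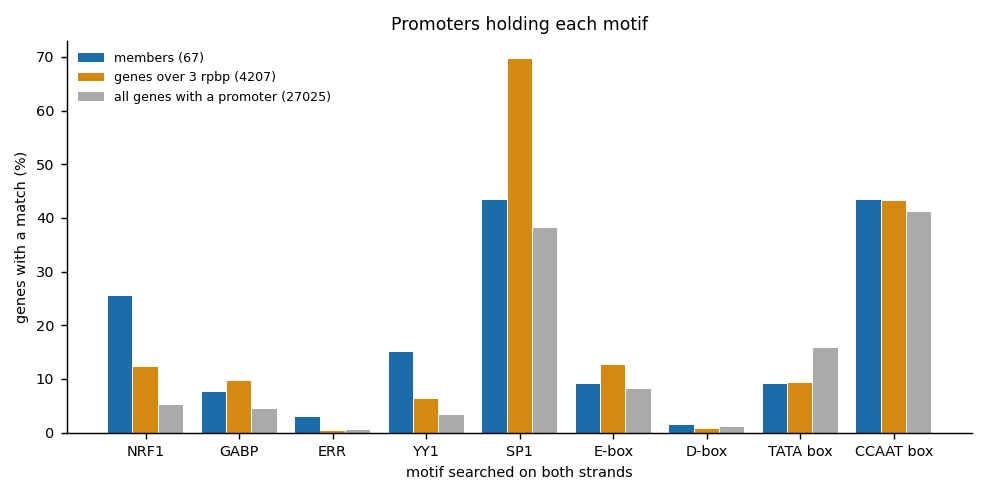
Share of promoter windows (%) holding each motif, for 67 members, 4207 genes with a mean above 3 rpbp and 27025 genes. The members' bars exceed both others for NRF1 (25.4%), YY1 (14.9%) and ERR (2.99%, 2 genes), and by less for the D-box (1.49%, 1 gene) and CCAAT (43.3%). The bar of genes above 3 rpbp exceeds that of the members for SP1 (69.5% against 43.3%).

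NRF1 matches of tested members of 4 complexes are shown for their place and flanking bases, and Cox6a1 adds a gene of complex IV. The letters in capitals are alike because the search required them. Each line is 30 bases of GRCm38.p6 on the gene's own strand, with the motif in capitals.
Sdha (complex II, chr13:74350276-74350305, minus strand): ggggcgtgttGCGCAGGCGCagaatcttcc
Sdhd (complex II, chr9:50603909-50603938, minus strand): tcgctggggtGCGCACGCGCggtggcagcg
Ndufa6 (complex I, chr15:82354249-82354278, minus strand): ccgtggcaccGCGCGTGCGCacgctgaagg
Ndufa8 (complex I, chr2:36049349-36049378, minus strand): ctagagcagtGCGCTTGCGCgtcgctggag
Uqcrc1 (complex III, chr9:108936668-108936697, plus strand): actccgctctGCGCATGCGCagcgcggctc
Atp5c1 (complex V, chr2:10080430-10080459, minus strand): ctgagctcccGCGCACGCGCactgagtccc
Atp5g3 (complex V, chr2:73911295-73911324, minus strand): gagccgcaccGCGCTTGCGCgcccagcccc
Cox6a1 (complex IV, chr5:115349101-115349130, minus strand): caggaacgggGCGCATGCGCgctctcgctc
Sdha held 3 such sites, at 98, 55 and 10 bases before its start, of which the middle one is shown, and Uqcrc1 and Cox6a1 held 2 each. That of Sdhd lay 79 bases before its start, and that of Atp5g3 13 bases after its start.

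The ERR sites of Sdhd and Atp5g3 are shown because these were the member called rhythmic in complex II and the one just outside the limits. Capitals mark the motif, which reads on the other strand in both.
Sdhd (chr9:50603800-50603829, minus strand): tttccgggttgtagagTGACCTTGAgccct
Atp5g3 (chr2:73911359-73911388, minus strand): tgttacaaagTGACCTTGAgcgtcttcccc
The E-box of Atp5g3 lay 238 bases before its start, and the site of YY1 in Ndufs7, the highest member, 25 bases after its start. They are shown as the clock motif in the member just outside the rhythm limits and as the motif in the member of highest level. The E-box letters were also in the windows of Ndufv1 (F24 0.0187) and Atp5f1 (F24 0.216), which were not called rhythmic, and of the untested Atp5g1, Atp5l and Ndufa7.
Atp5g3, E-box (chr2:73911547-73911576, minus strand): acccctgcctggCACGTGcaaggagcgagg
Ndufs7, YY1 (chr10:80249462-80249491, plus strand): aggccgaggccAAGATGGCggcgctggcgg

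The region before the start of Ndufa10, the other member called rhythmic, held none of the NRF1, YY1, GABP, ERR, E-box or D-box letters. Its 250 bases before the start (chr1:92473759-92474008, GRCm38.p6, minus strand, 57.6% GC) held the SP1 letters at 2 places, both reading on the other strand and set in capitals.
Ndufa10: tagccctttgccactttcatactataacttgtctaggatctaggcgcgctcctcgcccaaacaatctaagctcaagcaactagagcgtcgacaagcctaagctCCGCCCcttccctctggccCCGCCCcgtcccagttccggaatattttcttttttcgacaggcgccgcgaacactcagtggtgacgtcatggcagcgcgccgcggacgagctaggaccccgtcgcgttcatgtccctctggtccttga

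Genes around the respiratory chain were counted in 4 lists, to be read against the 15.1% of all tested genes called rhythmic. Of 24 assembly and import factors outside the rule, 18 were in the table and 6 were tested, and none was called rhythmic or passed the F-test or a 12-h contrast after adjustment. Of 21 electron carriers, transporters and ubiquinone synthesis genes, 7 were tested and 1 was called rhythmic, a share near that of all tested genes. This was Etfa, the alpha subunit of the flavoprotein that carries electrons from fatty acid oxidation, with a strong rhythm (F24 0.645, fitted peak at 0.0237 h, permutation p = 0.0163, adjusted p = 0.195). It measured 7.4 and 7.5 rpbp at ZT0, 5.3 and 9 at ZT4, 5.9 and 5 at ZT8, 3.2 and 4.2 at ZT12, 3.4 and 4.4 at ZT16, and 7.9 and 9.4 at ZT20, so all 4 libraries of ZT12 and ZT16 were below the other 8.

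Of 17 genes of the tricarboxylic acid cycle, which feeds NADH and succinate to complexes I and II, 14 were tested and 1, Suclg1 of succinyl-CoA ligase, was called rhythmic (F24 0.749, fitted peak at 3.97 h, permutation p = 0.00336, adjusted p = 0.111). Suclg1 measured 8.05 ± 1.63 rpbp at ZT0, 8.5 ± 0.99 at ZT4, 7.95 ± 0.0707 at ZT8, 6.5 ± 0.424 at ZT12, 5.3 in both libraries of ZT16 and 6.45 ± 0.919 at ZT20 (SD, n = 2). Of the 14 genes none passed the limma F-test or a contrast after adjustment.

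Of 15 regulators of respiratory genes, 8 were tested and 1, Ppargc1b, a coactivator of mitochondrial biogenesis, was called rhythmic (F24 0.544, fitted peak at 9.29 h, permutation p = 0.0396, adjusted p = 0.276). It measured 3.4 and 2.4 rpbp at ZT0, 8.1 and 5.6 at ZT4, 9.1 and 4.8 at ZT8, 8.5 and 8.2 at ZT12, 3.6 and 4.5 at ZT16, and 5.5 and 3.6 at ZT20. ZT0 was below ZT12 with a log2 change of -1.27 ± 0.30 and a limma adjusted p of 0.041, and 2.85% of tested genes were called in this direction. Among the genes of these 4 lists it was the only one past an adjusted threshold in a 12-h contrast. It passed 6 rpbp only in ZT4 replicate 1, ZT8 replicate 1 and both libraries of ZT12, and thus in part through the high side of this contrast.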

How the data were processed

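Nascent-Seq libraries of 6 time points with 2 replicates were used, with groups and replicate numbers taken from the labels. According to the study's methods and processing notes, reads were extracted with CASAVA 1.7 and aligned to mm9 with TopHat. The authors counted uniquely mapped reads over the merged exons of each symbol without regard to strand, divided by exon length, scaled libraries to the same number of reads and deposited this coverage signal in rpbp, rounded to 1 decimal. ZT8 and ZT20 libraries were run in 2 lanes and the others in 1, so lanes and time points cannot be told apart. The depth behind each rpbp value is not in the table, and the number of replicates limits the precision. The authors' F24, phase and p-value columns were not used. Blank lines (27919) were dropped.

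Testing was limited to the 6284 genes with a value over 6 rpbp in 1 library or more. F24 was computed on linear values with 100000 permutations of the 12 values, and limits were those of the study's methods (rhythmic: p under 0.05, F24 over 0.45, highest over 1.5 times lowest). limma 3.58.1 in R 4.3.3 was fitted to log2(rpbp + 1) over the 6 time points without a replicate block. P-values were adjusted by the Benjamini-Hochberg method over all tested genes. Both scripts were tested on simulated data. Exon structure, GC content and repeated 80-base stretches came from GENCODE M1 and mm9, coordinates are counted from 1, and promoters came from RefSeq. Alternatives were filters of 3 and 12 rpbp or none, rescaled libraries, GC trend removed in 20 bins, a replicate block, each library left out, other scales and limits.

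The members and lists (assembly factors, carriers, regulators, tricarboxylic acid cycle and cell type markers) were chosen with earlier results of these data known. Named with values in every library were members called or past an adjusted threshold and, in each complex, the highest tested mean. The lowest tested mean of each complex, isoform pairs and the 3 steadiest tested members were named with their mean or range, and untested members by name and range. Ndufs4, Atp5f1, Atp5g3 and Timm8b were also given in every library, chosen after their values were seen. The values of 1 member are not reported here, although counts, medians and sums over the members include it.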

Additional observations from a re-analysis of the deposited data

How the results depend on the processing

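The number of members called rhythmic, 2 of 27, was 4 of 65 with a filter of 3 rpbp (all genes, 13.6%), 5 of 83 with no filter (10.7%) and 0 of 6 with a filter of 12 rpbp (17.8%). It was 0 with an adjusted permutation p and 0 at the strong limits. Over the 12 fits that left out 1 library it ranged from 0 to 3, being 0 without ZT0 replicate 2 or ZT4 replicate 2, 1 (Sdha) without ZT0 replicate 1 and 1 (Sdhd) without ZT8 replicate 1, ZT16 replicate 1 or ZT16 replicate 2. With the replicate number as a block it was 1, Sdhd. The cause was not tested. Removal of the GC trend and both log2 scales gave 2. The limma F-test called 0 members under every alternative except without ZT8 replicate 1, where it called 1, Atp5f1, so its range over left-out libraries was 0 to 1. The 3 contrasts of time points 12 h apart called 0 members under all 19 alternatives each, the replicate block included. Replicate numbers share no stated batch or day, and over 15 pairs of time points the correlation of same-numbered deviations ran from -0.117 to 0.32, above 0.1 in 5, so the numbers were not taken to pair the libraries. Complex medians and isoform differences, recomputed on rescaled libraries and, for the isoforms, on log2(rpbp + 1) after the values were seen, kept their direction and side of the threshold. With 2 libraries per time point and most members under 6 rpbp, 56 of the 83 could not be examined for time of day under the main filter.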
